A study of Mus musculus with 16 samples.

Results

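The 46 genes described here encode the machinery of the mouse liver peroxisome. They were taken by symbol from a fixed list of peroxins, enzymes of peroxisomal beta- and alpha-oxidation, transporters and membrane proteins, ether lipid enzymes, matrix proteases, and oxidases with their glyoxylate and urate partners. They are 46 of the 53465 genes in the count table, and 44 of them were among the 14998 genes with enough counts to test. RNA was sequenced from livers of C57BL/6 mice aged 29 to 30 weeks, in 4 groups of 4 mice. HFD_PFOA mice ate a high-fat diet for 16 weeks and were then given perfluorooctanoate (PFOA), a persistent perfluorinated fatty acid analogue, for another 8 weeks. HFD_vehicle mice had the same high-fat diet and then vehicle, CD_PFOA mice had a control diet and then PFOA, and CD_vehicle mice had the control diet and then vehicle. The design describes the livers after 16 weeks as steatotic on the high-fat diet and normal on the control diet. The labels used here state neither the PFOA dose nor the sex of the mice. The question was how PFOA changed the liver on each diet, and how the high-fat diet changed it with and without PFOA.

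Peroxisomes are single-membrane organelles that shorten very long chain and branched fatty acids, make the first bonds of ether lipids, and detoxify glyoxylate and hydrogen peroxide. Their matrix proteins are made in the cytosol and carried in by the receptors PEX5 and PEX7 through a docking complex, a ring ligase and an export ATPase, while PEX3, PEX16 and PEX19 insert membrane proteins and PEX11 proteins help the organelle elongate and divide. In rodent liver, fatty acids and drugs called peroxisome proliferators act through the nuclear receptor PPARalpha, which binds a direct repeat of AGGTCA with RXR as its partner and switches on genes of peroxisomal beta-oxidation. PFOA is known as a peroxisome proliferator in rodents.

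Library totals ran from 14456524 to 25778125 counts. Levels are CPM, counts scaled to a library of 1000000 after correction of library size by the trimmed mean of M-values (TMM), and fold changes are log2 ± SE. A gene was called when its adjusted p was under 0.05 in edgeR's quasi-likelihood test with Benjamini-Hochberg adjustment over the 14998 genes, to which every adjusted p below refers unless another test is named. The other fits named below used scaling by library totals or by DESeq2's size factors, no filter on low counts, the DESeq2 Wald test, the 2 groups alone, or 1 library left out. All 10 hepatocyte markers had enough counts to test. Their summed level was 53849.8 to 64814 CPM in HFD_PFOA, 81916 to 96362 CPM in HFD_vehicle, 59401 to 77006 CPM in CD_PFOA and 99203 to 138527 CPM in CD_vehicle livers, and 10 of 10 were called lower with PFOA on the high-fat diet, 9 of 10 with PFOA on the control diet and 6 of 10 with the high-fat diet under vehicle. In whole liver RNA, fewer cells of a type and less RNA per cell cannot be told apart.

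Some markers of other liver cells were also called. Of all genes tested, 8.60% were called higher and 7.91% lower with PFOA on the high-fat diet. These shares were 11.8% and 12.6% with PFOA on the control diet, and 5.19% and 5.21% with the high-fat diet under vehicle. With PFOA on the high-fat diet, 1 of 7 stellate and 1 of 6 cholangiocyte markers were called lower. With PFOA on the control diet, 3 of 7 sinusoidal endothelium markers were called higher and 1 lower, 2 of 7 stellate markers higher and 2 of 7 B cell markers lower. With the high-fat diet under vehicle, 4 of 10 macrophage, 3 of 7 stellate, 2 of 7 endothelium and 1 of 6 cholangiocyte markers were called higher, and 1 endothelium and 1 B cell marker lower. Stellate markers summed to 328 to 429 CPM in HFD_PFOA, 472 to 533 CPM in HFD_vehicle, 300.3 to 417 CPM in CD_PFOA and 221.5 to 389 CPM in CD_vehicle livers. Cholangiocyte markers summed to 56.0 to 79.4 CPM in HFD_PFOA, 125 to 249.9 CPM in HFD_vehicle, 32.4 to 55.9 CPM in CD_PFOA and 46.2 to 96.7 CPM in CD_vehicle livers. Endothelium markers summed to 278 to 333 CPM in HFD_PFOA, 267 to 344 CPM in HFD_vehicle, 277 to 365 CPM in CD_PFOA and 256 to 301 CPM in CD_vehicle livers. Macrophage markers summed to 314 to 699.6 CPM in HFD_PFOA, 423 to 608 CPM in HFD_vehicle, 177 to 447 CPM in CD_PFOA and 211 to 408 CPM in CD_vehicle livers. B cell markers summed to 43.2 to 68.6 CPM in HFD_PFOA, 30.8 to 44.2 CPM in HFD_vehicle, 37.3 to 58.0 CPM in CD_PFOA and 18.4 to 646 CPM in CD_vehicle livers, where the median was 28.9 CPM. No marker of these 5 lists was at 0 throughout a group. Of 6 adipocyte markers (Adipoq, Lep, Plin1, Cidea, Adipor2 and Retn), 2 had enough counts to test, and Lep was at 0 in every group. These markers summed to 868 to 1115 CPM in HFD_PFOA and 686 to 842 CPM in HFD_vehicle livers. In CD_PFOA livers they summed to 836 to 945 CPM, and in CD_vehicle livers to 802 to 1124 CPM. Whether these counts came from adipocytes was not tested. With PFOA, 1 adipocyte marker was called higher on each diet. With the high-fat diet under vehicle, 1 adipocyte marker was called higher and 1 lower. The part of these marker differences in the results was not tested. CD_vehicle 4 had the lowest median log2 difference from the other mice of its group over the 44 tested members, -0.23, with 10 of 44 above their mean. HFD_PFOA 3 had 9 of 44 above and a median of -0.10. HFD_PFOA 1 had the highest median, 0.16, with 36 of 44 above.

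Promoter sequences are shown for the 2 genes that led the PFOA response in their classes and for catalase, the most abundant member per kilobase of exon in vehicle livers, whose level did not pass the test on either diet. The windows come from RefSeq on GRCm38.p6, are read 5′ to 3′ on the coding strand, and cover the 250 bases before the annotated start. A direct repeat of AGGTCA with 1 free base between the repeats, the DR1 element, was searched on both strands from 250 bases before to 50 bases after the start, and a match of its letters with at most 2 mismatches is in capitals.
Ehhadh, chr16:21787835-21788084, minus strand: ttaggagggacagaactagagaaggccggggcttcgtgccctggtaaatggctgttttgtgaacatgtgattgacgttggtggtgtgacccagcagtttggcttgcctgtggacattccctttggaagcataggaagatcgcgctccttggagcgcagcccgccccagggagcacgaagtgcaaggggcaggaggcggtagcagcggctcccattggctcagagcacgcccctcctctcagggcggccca
Pex11a, chr7:79743132-79743381, minus strand: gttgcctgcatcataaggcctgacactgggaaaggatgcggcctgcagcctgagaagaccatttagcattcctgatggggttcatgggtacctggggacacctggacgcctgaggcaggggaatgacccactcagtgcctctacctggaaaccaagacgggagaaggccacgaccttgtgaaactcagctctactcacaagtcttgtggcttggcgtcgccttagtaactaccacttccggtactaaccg
Cat, chr2:103485154-103485403, minus strand: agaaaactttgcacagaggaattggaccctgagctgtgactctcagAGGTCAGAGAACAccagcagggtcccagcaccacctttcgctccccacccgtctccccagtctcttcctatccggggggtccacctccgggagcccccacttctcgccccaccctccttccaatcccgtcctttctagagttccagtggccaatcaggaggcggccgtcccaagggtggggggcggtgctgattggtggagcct
Cat held AGGTCAGAGAACA starting 204 bases before its start, and Acox2 held 1 match just inside the transcript, chr14:8258810-8258838 on the minus strand, shown here with 8 bases on either side.
Acox2 match: gctgtcccAGGACAGAGGTGAgtcaagag
Of the 40 member genes with a RefSeq window, 2 (5.0%) held such a match, against 4.403% of 27025 genes. The windows of Ehhadh and Pex11a held none. Sequence outside the windows was not searched, so a match further from the start would not be seen. Pex2, Pex19, Hsd17b4, Abcd2, Pxmp2 and Mpv17l were not in the window table.

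The share of counts that came from the peroxisomal genes was higher in every PFOA liver than in any vehicle liver of its diet. Most of the difference lay in the beta-oxidation gene Ehhadh. The 46 genes held 3.55% ± 0.13 of all counts in HFD_PFOA livers, 1.48% ± 0.063 in HFD_vehicle, 3.25% ± 0.31 in CD_PFOA and 1.39% ± 0.1 in CD_vehicle livers (mean ± SD, n = 4 each). By mouse the shares were 3.73, 3.55, 3.49 and 3.42% in HFD_PFOA livers, against 1.57, 1.47, 1.42 and 1.46% in HFD_vehicle livers. They were 3.7, 3.1, 3.01 and 3.18% in CD_PFOA livers, against 1.4, 1.45, 1.47 and 1.24% in CD_vehicle livers. PFOA and vehicle livers did not overlap on either diet. With Ehhadh left out, the shares were 1.86% ± 0.09 in HFD_PFOA, 1.41% ± 0.058 in HFD_vehicle, 1.74% ± 0.084 in CD_PFOA and 1.34% ± 0.098 in CD_vehicle livers, again without overlap within a diet. The 7 core beta-oxidation genes, Ehhadh included, took 2.13% ± 0.08 in HFD_PFOA and 0.424% ± 0.029 in HFD_vehicle livers. They took 1.9% ± 0.25 in CD_PFOA and 0.338% ± 0.024 in CD_vehicle livers. The oxidases, catalase and glyoxylate genes took 0.592% ± 0.028 in HFD_PFOA, 0.561% ± 0.018 in HFD_vehicle, 0.567% ± 0.01 in CD_PFOA and 0.592% ± 0.088 in CD_vehicle livers, and the mice of the groups overlapped within each diet. The shares are not TMM-scaled. As TMM-scaled CPM the 46 genes summed to 13858 ± 562 in HFD_vehicle and 15213 ± 1674 in CD_vehicle livers (mean ± SD). The order of the 2 vehicle groups thus depended on the scaling. These sums are descriptions with no test.

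**Figure D1:**
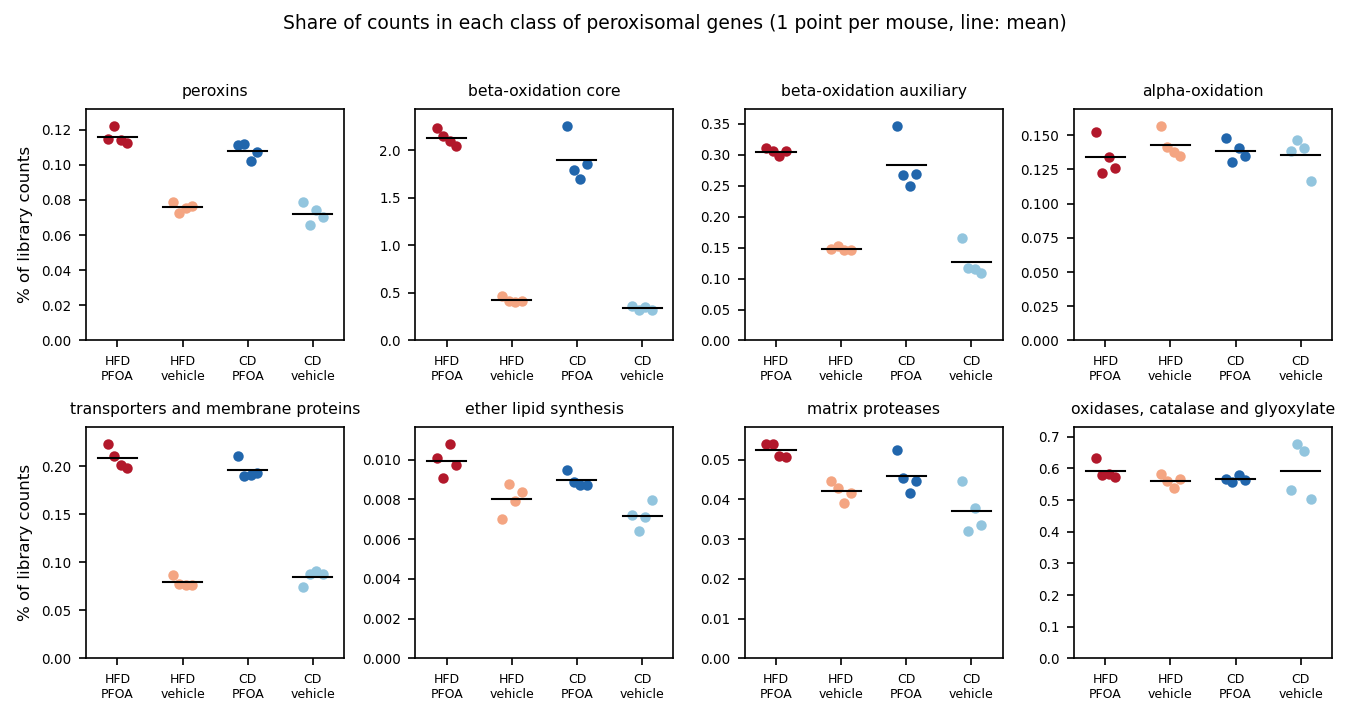
Share of all counts in each library (%, vertical axis) taken by each of 8 classes of peroxisomal genes, with 1 point per mouse and a line at the mean of 4 mice, for HFD_PFOA, HFD_vehicle, CD_PFOA and CD_vehicle livers. The core beta-oxidation class, Ehhadh included, averaged 2.13% in HFD_PFOA and 0.424% in HFD_vehicle livers, and 1.9% in CD_PFOA and 0.338% in CD_vehicle livers. The alpha-oxidation and oxidase classes overlapped between PFOA and vehicle on both diets, and the matrix proteases on the control diet.

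On the high-fat diet, PFOA raised 19 and lowered 4 of the 44 tested members, 43.2% and 9.09% of them, against 8.60% and 7.91% of all genes tested (16.5% either way). On the control diet it raised 18 and lowered 11, 40.9% and 25%, against 11.8% and 12.6% of all genes (24.4% either way). The 4 PFOA livers lay wholly above the 4 vehicle livers for 21 members and wholly below for 4 on the high-fat diet, where 12.9% and 12.5% of all genes did so. With the control diet these were 19 and 6 members, against 11.1% and 11.6% of all genes. The median log2 fold change of the members was 0.28 on the high-fat and 0.21 on the control diet, and over all genes it was 0.01 on the high-fat and -0.002 on the control diet. With libraries scaled by their totals alone, the split on the control diet was 21 higher and 8 lower. The comparisons on the 2 diets share no mouse. Of the genes called higher, 16 were called on both diets, which is 84.2% of the 19 on the high-fat diet and 88.9% of the 18 on the control diet. Of those called lower, 4 were called on both, which is 100% of the 4 on the high-fat diet and 36.4% of the 11 on the control diet. The same overlap was not worked out over all genes tested, so these shares describe the members only. No member was called in opposite directions, and 12 were called on neither diet.

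**Figure D2:**
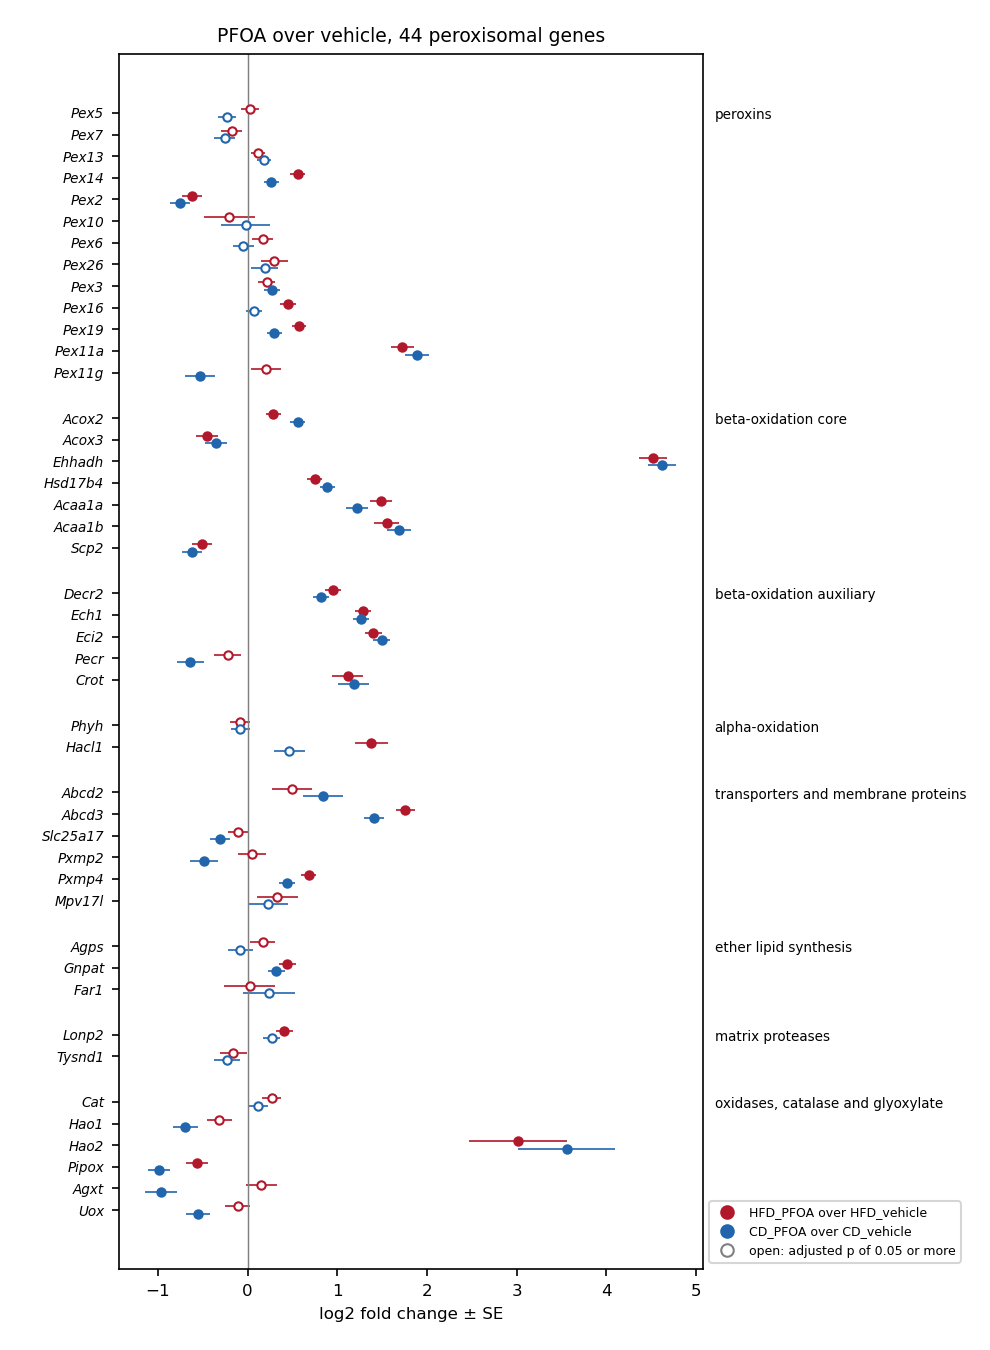
Log2 fold change ± SE (horizontal axis) of PFOA over vehicle for 44 peroxisomal genes, grouped by class, on the high-fat diet (red, upper point) and the control diet (blue, lower point). Filled points have adjusted p under 0.05, with 19 higher and 4 lower on the high-fat diet and 18 higher and 11 lower on the control diet. Ehhadh lies furthest to the right on both diets, followed by Hao2.

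In the core beta-oxidation spiral, 5 of 7 genes rose and 2 fell with PFOA on both diets. Of all genes tested, 8.60% were called higher and 7.91% lower on the high-fat diet, and 11.8% and 12.6% on the control diet. Ehhadh, the bifunctional enzyme that hydrates and dehydrogenates the chain, had 17753, 16489, 15221 and 15372 CPM in HFD_PFOA livers, against 798, 573, 734 and 709 CPM in HFD_vehicle livers. In CD_PFOA livers it had 18011, 14115, 14096 and 15411 CPM, against 498, 698, 763 and 536 CPM in CD_vehicle livers. Every PFOA liver stood far above every vehicle liver. That is 23.0-fold higher on the high-fat diet (log2 4.53 ± 0.16, adjusted p = 1.89e-13) and 24.7-fold higher on the control diet (log2 4.63 ± 0.16, adjusted p = 1.37e-13). The difference between the diets in this effect was -0.10 (log2, 95% interval -0.50 to 0.30). Per kilobase of exon, Ehhadh stood first among the members in both PFOA groups, at 5437 ± 394 CPM per kb in HFD_PFOA and 5169 ± 618 CPM per kb in CD_PFOA livers, and sixth in both vehicle groups, at 235.97 ± 31.8 CPM per kb in HFD_vehicle and 209 ± 42.6 CPM per kb in CD_vehicle livers. Its counterpart Hsd17b4, the second bifunctional enzyme, which takes branched chains and bile acid intermediates, had 1052, 969, 909 and 903 CPM in HFD_PFOA livers, against 615, 556, 548 and 558 CPM in HFD_vehicle livers (log2 0.75 ± 0.08, adjusted p = 2.21e-06). Among control-diet livers it had 964, 863, 894 and 969 CPM in CD_PFOA livers, against 535, 458, 509 and 488 CPM in CD_vehicle livers (log2 0.89 ± 0.08, adjusted p = 1.66e-07). The groups did not overlap on either diet. Of the counts of this pair, Ehhadh took 94.4% in HFD_PFOA, 55.1% in HFD_vehicle, 94.3% in CD_PFOA and 55.2% in CD_vehicle livers.

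The thiolases that cut off acetyl-CoA rose, apart from the one in Scp2. Acaa1b had 1959, 1521, 1459 and 1488 CPM in HFD_PFOA livers, against 670.0, 444, 521 and 559.9 CPM in HFD_vehicle livers (log2 1.55 ± 0.14, adjusted p = 8.79e-08). The control-diet levels were 1516, 1386, 1394 and 1396 CPM in CD_PFOA livers, against 433, 440.0, 539 and 351 CPM in CD_vehicle livers (log2 1.69 ± 0.14, adjusted p = 2.3e-08). The PFOA livers all lay above the vehicle livers. Its close relative Acaa1a averaged 145 ± 20.8 CPM in HFD_PFOA and 52.0 ± 4.22 CPM in HFD_vehicle livers (SD, n = 4 each; log2 1.48 ± 0.12, adjusted p = 3.91e-08). It averaged 123 ± 12.04 CPM in CD_PFOA and 52.8 ± 9.23 CPM in CD_vehicle livers (log2 1.22 ± 0.12, adjusted p = 3.98e-07). Of their 50-base windows, 39.62% for Acaa1b and 17.06% for Acaa1a also occur in other genes, each other included, so the split of reads between them is uncertain. Scp2 encodes both a thiolase for branched chains and a sterol carrier protein. It had 1588, 1231, 1124 and 1164 CPM in HFD_PFOA livers, against 1964, 1899, 1717 and 1709 CPM in HFD_vehicle livers (log2 -0.51 ± 0.11, adjusted p = 0.00266). CD_PFOA livers held 1129, 1159, 1218 and 1259 CPM, against 2158, 1720.2, 1824 and 1628 CPM in CD_vehicle livers (log2 -0.62 ± 0.11, adjusted p = 0.000341). It thus fell on both diets, with no overlap between PFOA and vehicle livers. Of the 50-base windows of Scp2, 29.7% also occur in Scp2-ps2 or Gm47162.

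The acyl-CoA oxidases of branched substrates did not move together. Acox2, which oxidises bile acid intermediates, averaged 298 ± 11.1 CPM in HFD_PFOA and 245 ± 17.9 CPM in HFD_vehicle livers (SD, n = 4 each; log2 0.29 ± 0.08, adjusted p = 0.0216). It averaged 310.4 ± 19.3 CPM in CD_PFOA and 211 ± 16.5 CPM in CD_vehicle livers (log2 0.56 ± 0.08, adjusted p = 5.07e-05). The call for Acox2 on the high-fat diet was lost without any 1 of HFD_PFOA 2 and 4, HFD_vehicle 1 and 2 (adjusted p = 0.0614 to 0.0767) and with no filter (0.28, adjusted p = 0.0817). Acox3, which takes methyl-branched chains, averaged 21.3 ± 3.38 CPM in HFD_PFOA and 29.1 ± 3.65 CPM in HFD_vehicle livers (log2 -0.45 ± 0.13, adjusted p = 0.0161). It averaged 21.6 ± 2.09 CPM in CD_PFOA and 27.7 ± 2.79 CPM in CD_vehicle livers (log2 -0.35 ± 0.13, adjusted p = 0.0452). Acox2 was higher and Acox3 lower with PFOA on both diets, but neither Acox3 call held in every fit with 1 library left out. On the high-fat diet the Acox3 call was lost without any 1 of HFD_PFOA 3 and 4, HFD_vehicle 1 and 2 (adjusted p = 0.0532 to 0.0658). On the control diet the Acox3 call was lost without any 1 of HFD_PFOA 1 and 4, HFD_vehicle 1 and 4, CD_PFOA 1, 2, 3 and 4, CD_vehicle 1, 3 and 4 (adjusted p = 0.0532 to 0.138) and with DESeq2's size factors, library totals, no filter or the 2 groups alone (adjusted p = 0.0537 to 0.161).

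**Figure D3:**
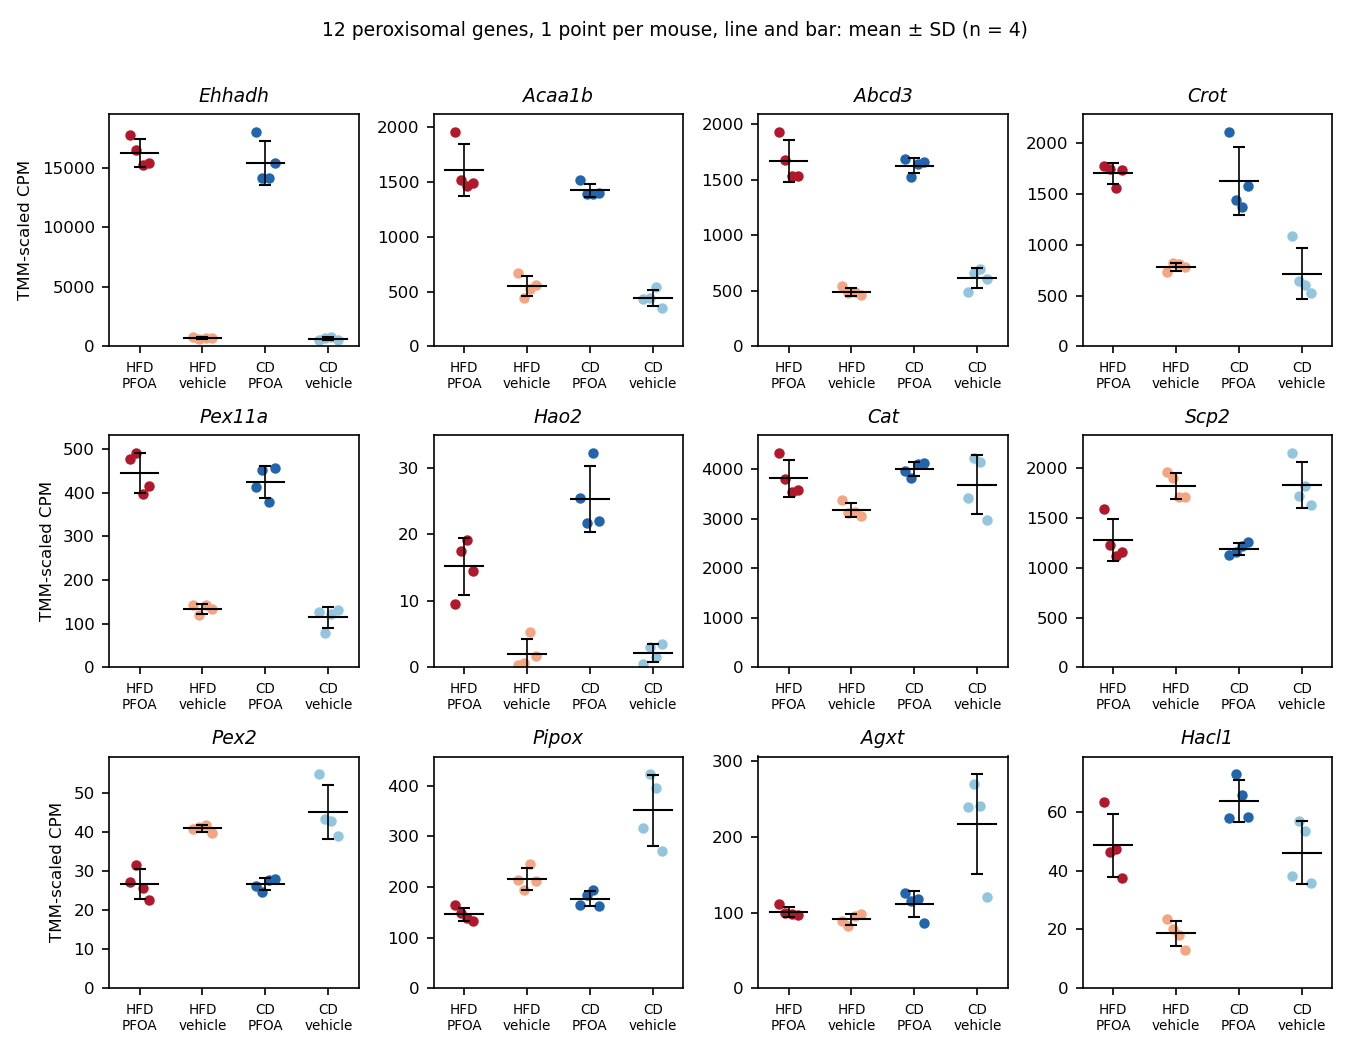
TMM-scaled CPM (vertical axes, each from 0) of 12 peroxisomal genes in HFD_PFOA, HFD_vehicle, CD_PFOA and CD_vehicle livers, with 1 point per mouse and the mean ± SD of 4 mice. Ehhadh, Acaa1b, Abcd3, Crot, Pex11a and Hao2 lie higher and Scp2, Pex2 and Pipox lower with PFOA on both diets, Cat overlaps on the control diet, and Agxt is high in 3 of 4 CD_vehicle livers.

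The enzymes that prepare unsaturated chains and hand shortened chains to the mitochondrion rose as well, 4 of 5 tested on each diet. Among all genes tested, 8.60% were called higher on the high-fat and 11.8% on the control diet. Ech1 and Eci2, isomerases that move double bonds, averaged 529.9 ± 45.9 and 303 ± 30.9 CPM in HFD_PFOA livers, against 217 ± 12.3 and 115 ± 5.89 CPM in HFD_vehicle livers. They averaged 552 ± 39.5 and 312 ± 20.5 CPM in CD_PFOA livers, against 229.4 ± 14.4 and 110.5 ± 11.2 CPM in CD_vehicle livers. For Ech1 the log2 fold change was 1.29 ± 0.09, adjusted p = 2.48e-09 on the high-fat and 1.27 ± 0.09, adjusted p = 2.46e-09 on the control diet. For Eci2 it was 1.40 ± 0.09, adjusted p = 2.08e-09 on the high-fat and 1.498 ± 0.09, adjusted p = 6.78e-10 on the control diet. Decr2, the peroxisomal dienoyl-CoA reductase, changed by 0.95 ± 0.09, adjusted p = 2.83e-07 on the high-fat diet and by 0.82 ± 0.09, adjusted p = 1.47e-06 on the control diet. The PFOA and vehicle livers of these 3 genes did not overlap. Crot, carnitine octanoyltransferase, which makes shortened acyl chains ready for export, had 1773, 1743, 1556 and 1739.8 CPM in HFD_PFOA livers, against 731, 817, 812 and 781 CPM in HFD_vehicle livers (log2 1.12 ± 0.17, adjusted p = 0.000103). In CD_PFOA livers it had 2114, 1446, 1371 and 1581 CPM, against 1084, 648, 606 and 529 CPM in CD_vehicle livers (log2 1.18 ± 0.17, adjusted p = 3.78e-05). CD_PFOA 1 and CD_vehicle 1 were each the highest of their group. Pecr, the trans-2-enoyl-CoA reductase, had 119, 85.2, 89.3 and 80.1 CPM in HFD_PFOA livers, against 113, 112, 109.6 and 102 CPM in HFD_vehicle livers, a log2 difference of -0.22 that did not pass the test (adjusted p = 0.363). On the control diet it fell, with 96.6, 102, 114 and 89.5 CPM in CD_PFOA livers, against 157, 190.0, 175 and 104 CPM in CD_vehicle livers (log2 -0.64 ± 0.15, adjusted p = 0.0037); the effects on the 2 diets differed by 0.41 ± 0.21 (adjusted p = 0.498). Eci3, a relative of Eci2, had 0 to 12 counts in a library and was not tested.

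Of the transporters and membrane proteins, 2 of 6 rose on the high-fat diet, against 8.60% of all genes tested. On the control diet 3 rose and 2 fell, against 11.8% higher and 12.6% lower of all genes. Abcd3, the ABC half-transporter that brings branched and bile acid acyl-CoAs into the peroxisome, had 1934, 1675, 1533 and 1539 CPM in HFD_PFOA livers, against 542, 479, 492 and 458 CPM in HFD_vehicle livers (log2 1.76 ± 0.11, adjusted p = 7.76e-10). With the control diet it had 1684, 1529, 1639 and 1657 CPM in CD_PFOA livers, against 488, 662, 696 and 605 CPM in CD_vehicle livers (log2 1.41 ± 0.11, adjusted p = 1.21e-08). No vehicle liver reached the PFOA livers. Abcd2, a half-transporter of very long chain acyl-CoAs, had 39.2, 58.7, 42.9 and 48.8 CPM in HFD_PFOA livers, against 29.4, 19.995, 46.4 and 38.9 CPM in HFD_vehicle livers (log2 0.50 ± 0.23, adjusted p = 0.153), a difference called with no filter (0.49, adjusted p = 0.0306). It rose on the control diet, with 67.3, 78.9, 54.5 and 69.6 CPM in CD_PFOA livers, against 25.9, 32.7, 36.6 and 55.4 CPM in CD_vehicle livers (log2 0.84 ± 0.23, adjusted p = 0.0092); the effects on the 2 diets differed by -0.35 ± 0.32 (adjusted p = 0.772). Pxmp4, a membrane protein of the peroxisome, rose on both, by 0.68 ± 0.09, adjusted p = 1.48e-05 on the high-fat and 0.44 ± 0.09, adjusted p = 0.00099 on the control diet. Pxmp2, a channel of the peroxisomal membrane, differed by 0.05 ± 0.16, adjusted p = 0.893 on the high-fat diet and was called lower on the control diet (-0.49 ± 0.16, adjusted p = 0.0271). The 2 effects on Pxmp2 differed by 0.54 ± 0.22 (adjusted p = 0.349), and the control-diet call was lost without any 1 of CD_PFOA 1 and 4, CD_vehicle 2 and 3 (adjusted p = 0.0773 to 0.104) and with the 2 groups alone (-0.47, adjusted p = 0.068). Slc25a17, a carrier of cofactors such as coenzyme A, differed by -0.11 ± 0.11, adjusted p = 0.593 on the high-fat diet and was called lower on the control diet (-0.31 ± 0.11, adjusted p = 0.0486). That call for Slc25a17 was lost without any 1 of HFD_PFOA 2 and 4, HFD_vehicle 2, 3 and 4, CD_PFOA 1, 2 and 4, CD_vehicle 2 and 3 (adjusted p = 0.0526 to 0.165) and with DESeq2's size factors, library totals, no filter, DESeq2 or the 2 groups alone (adjusted p = 0.061 to 0.121), and the interaction was 0.20 ± 0.16 (adjusted p = 0.709). Mpv17l, at 11.9 to 14.2 CPM in HFD_PFOA, 6.67 to 13.7 CPM in HFD_vehicle, 13.5 to 22.7 CPM in CD_PFOA and 11.9 to 21.7 CPM in CD_vehicle livers, was called on neither diet.

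Among the 13 peroxins, Pex11a had the largest log2 fold change on both diets. On the high-fat diet 4 (30.8%) were called higher and 1 (7.69%) lower, against 8.60% and 7.91% of all genes tested. On the control diet 4 (30.8%) were called higher and 2 (15.4%) lower, against 11.8% and 12.6% of all genes. Pex11a, the division factor known to be induced by peroxisome proliferators, had 478, 491, 397 and 416 CPM in HFD_PFOA livers, against 143, 119, 144 and 133 CPM in HFD_vehicle livers (log2 1.73 ± 0.13, adjusted p = 1.4e-08). The control-diet levels were 413, 452, 378 and 456 CPM in CD_PFOA livers, against 127, 79.5, 122 and 131 CPM in CD_vehicle livers (log2 1.89 ± 0.13, adjusted p = 3.34e-09). The PFOA livers stood clear of the vehicle livers on both diets. Its relative Pex11g had 11.4, 12.2, 11.8 and 8.81 CPM in HFD_PFOA livers, against 9.69, 11.4, 9.13 and 8.08 CPM in HFD_vehicle livers (log2 0.21 ± 0.17, adjusted p = 0.466). On the control diet it was called lower, with 8.14, 10.4, 9.61 and 6.54 CPM in CD_PFOA livers, against 14.4, 13.3, 12.1 and 10.3 CPM in CD_vehicle livers (log2 -0.53 ± 0.17, adjusted p = 0.0249). That call for Pex11g was lost without any 1 of CD_PFOA 1 and 4, CD_vehicle 1 and 2 (adjusted p = 0.0557 to 0.0865) and with library totals or the 2 groups alone (adjusted p = 0.0698 to 0.0721), the effects on the 2 diets differed by 0.74 ± 0.24 (adjusted p = 0.211), and 41.1% of its exon bases lie in another gene model.

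Pex19, the chaperone of membrane proteins, had 173, 170.2, 167 and 174 CPM in HFD_PFOA livers, against 121, 106, 115 and 117 CPM in HFD_vehicle livers (log2 0.57 ± 0.08, adjusted p = 3.66e-05). CD_PFOA livers held 164, 156, 166 and 162 CPM, against 136, 133, 144 and 113 CPM in CD_vehicle livers (log2 0.30 ± 0.08, adjusted p = 0.00938). This control-diet call was lost without both CD_vehicle 1 and CD_vehicle 4, an alternative chosen after the data were seen (0.22, adjusted p = 0.0633). The groups did not overlap on either diet. Pex16, a membrane receptor for this pathway, rose on the high-fat diet (0.45 ± 0.09, adjusted p = 0.00138), where HFD_PFOA livers had 47.6 to 57.9 CPM and HFD_vehicle livers 34.6 to 40.9 CPM. Pex16 on the control diet differed by 0.07 ± 0.09, adjusted p = 0.644, and the interaction was 0.39 ± 0.13 (adjusted p = 0.237). Pex3, its docking partner for PEX19, differed by 0.21 ± 0.09, adjusted p = 0.128 on the high-fat diet and was called higher on the control diet (0.27 ± 0.09, adjusted p = 0.0347), a call lost without any 1 of CD_PFOA 2 and 3, CD_vehicle 3 and 4 (adjusted p = 0.083 to 0.117) and with no filter or the 2 groups alone (adjusted p = 0.0773 to 0.126). The interaction for Pex3 was -0.06 ± 0.13 (adjusted p = 0.924). Pex14, the core of the docking complex, rose by 0.56 ± 0.08, adjusted p = 8.09e-05 on the high-fat diet and by 0.27 ± 0.08, adjusted p = 0.0256 on the control diet, and the second call was lost without any 1 of CD_PFOA 1 and 2, CD_vehicle 2 and 3 (adjusted p = 0.0574 to 0.0865) and with no filter or the 2 groups alone (adjusted p = 0.0751 to 0.103). Another gene model covers 28.32% of the exon bases of Pex14.

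Pex2, a subunit of the ring ligase that ubiquitinates PEX5 for recycling, fell on both diets. It had 27.2, 31.6, 25.7 and 22.5 CPM in HFD_PFOA livers, against 40.9, 41.4, 42.0 and 39.9 CPM in HFD_vehicle livers (log2 -0.62 ± 0.11, adjusted p = 0.000519). In CD_PFOA livers it had 26.2, 24.8, 27.9 and 28.0 CPM, against 55.0, 43.3, 43.0 and 38.9 CPM in CD_vehicle livers (log2 -0.75 ± 0.11, adjusted p = 4.37e-05). All PFOA livers were below all vehicle livers. Its partner Pex10 was at 3.63 ± 1.03 CPM in HFD_PFOA, 4.17 ± 1.06 CPM in HFD_vehicle, 4.74 ± 1.39 CPM in CD_PFOA and 4.82 ± 1.32 CPM in CD_vehicle livers, and was not called. The import receptors Pex5 and Pex7 were called on neither diet, with log2 differences of 0.03 and -0.17 on the high-fat and -0.23 and -0.26 on the control diet. Without CD_vehicle 4, Pex7 was called lower on the control diet (-0.34, adjusted p = 0.0331). Pex13 of the docking complex, Pex6 of the export ATPase and its anchor Pex26 were also not called, with log2 differences of 0.11, 0.17 and 0.30 on the high-fat diet and 0.18, -0.05 and 0.19 on the control diet. Pex13 was called higher on the control diet with library totals or DESeq2 (adjusted p = 0.00962 to 0.0408).

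Of the 2 enzymes of alpha-oxidation, which removes 1 carbon from branched fatty acids such as phytanic acid, 1 was called higher. That was on the high-fat diet, where 8.60% of all genes tested were called higher. Phyh, the hydroxylase that begins it, had 1131 to 1492 CPM in HFD_PFOA and 1242 to 1442 CPM in HFD_vehicle livers, a log2 difference of -0.08 (95% interval -0.31 to 0.14). It had 1233 to 1432 CPM in CD_PFOA and 1172 to 1597 CPM in CD_vehicle livers, a log2 difference of -0.08 (95% interval -0.31 to 0.14). Neither passed the test. Hacl1, the lyase of the next step, had 63.3, 46.5, 47.3 and 37.4 CPM in HFD_PFOA livers, against 23.4, 20.3, 17.99 and 13.2 CPM in HFD_vehicle livers (log2 1.38 ± 0.18, adjusted p = 2.04e-05). Among control-diet livers it had 58.0, 72.9, 65.7 and 58.2 CPM in CD_PFOA livers, against 38.1, 56.7, 53.6 and 35.9 CPM in CD_vehicle livers (log2 0.47 ± 0.18, adjusted p = 0.0631). The rise was called on the high-fat diet, where the groups did not overlap and HFD_vehicle livers were the lowest of the study. On the control diet Hacl1 was called higher with library totals, no filter or DESeq2 (adjusted p = 0.0103 to 0.0408), and without CD_vehicle 2 (0.58, adjusted p = 0.0299), HFD_PFOA 1 (0.47, adjusted p = 0.0459) or HFD_vehicle 4 (0.47, adjusted p = 0.0437). Other gene models cover 33.33% of its exon bases.

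Ether lipid synthesis begins in the peroxisome with Gnpat, which acylates dihydroxyacetone phosphate, and Agps, which swaps the acyl for an alkyl chain made by Far1. Gnpat had 77.9, 63.3, 68.9 and 63.8 CPM in HFD_PFOA livers, against 44.8, 57.8, 49.3 and 50.04 CPM in HFD_vehicle livers (log2 0.44 ± 0.09, adjusted p = 0.00252). The control-diet levels were 67.99, 64.5, 72.4 and 74.6 CPM in CD_PFOA livers, against 58.0, 50.7, 58.1 and 56.9 CPM in CD_vehicle livers (log2 0.32 ± 0.09, adjusted p = 0.0171). It rose on both diets, but the control-diet call was lost without any 1 of CD_PFOA 4, CD_vehicle 2 (adjusted p = 0.0539 to 0.0546). Agps had 18.9 to 22.5 CPM in HFD_PFOA, 15.6 to 20.6 CPM in HFD_vehicle, 12.3 to 21.5 CPM in CD_PFOA and 15.9 to 19.3 CPM in CD_vehicle livers, and log2 differences of 0.17 on the high-fat (95% interval -0.12 to 0.46) and -0.08 on the control diet (95% interval -0.37 to 0.21). Far1, the fatty acyl-CoA reductase, was at 6.40 ± 1.15 CPM in HFD_PFOA, 6.30 ± 1.89 CPM in HFD_vehicle, 5.03 ± 1.99 CPM in CD_PFOA and 4.25 ± 1.39 CPM in CD_vehicle livers. Agps and Far1 were called on neither diet. Of the matrix proteases, Lonp2, which degrades matrix proteins, rose on the high-fat diet (0.41 ± 0.10, adjusted p = 0.00603) and missed the threshold on the control diet (0.27 ± 0.10, adjusted p = 0.0541), where it passed with DESeq2's size factors, library totals or DESeq2 (adjusted p = 0.00989 to 0.0384) and without CD_vehicle 1 (0.35, adjusted p = 0.0117) or CD_vehicle 3 (0.30, adjusted p = 0.0483). The interaction for Lonp2 was 0.14 ± 0.14 (adjusted p = 0.794). Tysnd1, which trims imported beta-oxidation enzymes, was not called (-0.16 ± 0.15, adjusted p = 0.541 on the high-fat and -0.23 ± 0.15, adjusted p = 0.28 on the control diet).

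Catalase, which breaks down the hydrogen peroxide that the oxidases make, was called on neither diet. Cat had 4329, 3801, 3539 and 3571 CPM in HFD_PFOA livers, against 3374, 3105, 3131 and 3054 CPM in HFD_vehicle livers (log2 0.27 ± 0.11, adjusted p = 0.0953, 95% interval 0.05 to 0.49). CD_PFOA livers held 3953, 3809.7, 4102 and 4130.0 CPM, against 3413, 4225, 4138 and 2969.8 CPM in CD_vehicle livers (log2 0.12 ± 0.11, adjusted p = 0.468, 95% interval -0.10 to 0.34). The HFD groups did not overlap, the CD groups did, and neither difference passed the test, although the first passed with the 2 groups alone (0.26, adjusted p = 0.0406) and without CD_vehicle 4 (0.27, adjusted p = 0.0412). Per kilobase of exon it had 1458 ± 139.8 CPM in HFD_PFOA, 1212 ± 54.5 CPM in HFD_vehicle, 1530.4 ± 56.6 CPM in CD_PFOA and 1411 ± 229.9 CPM in CD_vehicle livers, first among the members under vehicle and second under PFOA.

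Of the 2 hydroxy acid oxidases, Hao2 rose on both diets and Hao1 fell on the control diet. Hao2, which oxidises long-chain hydroxy acids, had 9.49, 17.5, 19.2 and 14.4 CPM in HFD_PFOA livers, against 0.386, 0.663, 5.33 and 1.69 CPM in HFD_vehicle livers (log2 3.02 ± 0.55, adjusted p = 0.000542). In CD_PFOA livers it had 25.4, 21.7, 32.2 and 21.9 CPM, against 0.459, 3.11, 1.55 and 3.46 CPM in CD_vehicle livers (log2 3.56 ± 0.54, adjusted p = 5.7e-05). It rose on both diets without overlap, and HFD_vehicle 3 was the highest vehicle liver: without it the high-fat effect was 4.03, adjusted p = 2.36e-05. Hao1, the glycolate oxidase of liver, had 165, 117, 106 and 100.04 CPM in HFD_PFOA livers, against 169, 158, 141 and 139 CPM in HFD_vehicle livers (log2 -0.32 ± 0.14, adjusted p = 0.133). It fell on the control diet, with 112, 126, 118 and 115 CPM in CD_PFOA livers, against 208, 195, 212 and 147 CPM in CD_vehicle livers (log2 -0.69 ± 0.14, adjusted p = 0.000927). HFD_PFOA 1 was high for Hao1, which passed on the high-fat diet with library totals (-0.37, adjusted p = 0.0489) and without that library (-0.50, adjusted p = 0.00693), and the interaction was 0.38 ± 0.19 (adjusted p = 0.499). Hao2 made up 11.6% of the summed Hao2 and Hao1 counts in HFD_PFOA and 1.37% in HFD_vehicle livers, and 17.7% in CD_PFOA and 1.21% in CD_vehicle livers. Dao, the D-amino acid oxidase, had 0 counts in all 16 libraries.

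Pipox, Agxt and Uox, genes of glycine, glyoxylate and urate handling, were called lower with PFOA on the control diet. Pipox, the oxidase of sarcosine and pipecolate, fell on both diets. It had 164, 148, 139 and 133 CPM in HFD_PFOA livers, against 213, 194, 245 and 211 CPM in HFD_vehicle livers (log2 -0.57 ± 0.12, adjusted p = 0.00289). With the control diet it had 165, 185, 195 and 162.9 CPM in CD_PFOA livers, against 316, 423, 395 and 269.9 CPM in CD_vehicle livers (log2 -0.99 ± 0.12, adjusted p = 6.66e-06). No PFOA liver reached a vehicle liver of its diet. Agxt, which turns glyoxylate into glycine, had 111, 99.2, 98.7 and 96.9 CPM in HFD_PFOA livers, against 89.4, 82.3, 95.8 and 98.3 CPM in HFD_vehicle livers (log2 0.15 ± 0.17, adjusted p = 0.642). The control-diet levels were 127, 115, 118 and 86.2 CPM in CD_PFOA livers, against 239, 270.0, 241 and 121 CPM in CD_vehicle livers (log2 -0.97 ± 0.17, adjusted p = 0.000354). It was high in CD_vehicle 1, 2 and 3, and CD_vehicle 4 lay within the CD_PFOA range. Uox, the urate oxidase of rodents, had 1704, 1406, 1407 and 1507 CPM in HFD_PFOA livers, against 1587, 1573, 1564 and 1776 CPM in HFD_vehicle livers (log2 -0.11 ± 0.14, adjusted p = 0.674). It fell on the control diet, with 1181, 1319.8, 1606 and 1409 CPM in CD_PFOA livers, against 1543, 2535, 2335 and 1689 CPM in CD_vehicle livers (log2 -0.55 ± 0.14, adjusted p = 0.00532); the groups overlapped, and the interaction was 0.44 ± 0.19 (adjusted p = 0.384). The hepatocyte markers fell in the same comparisons, and their part in these falls was not tested.

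Under vehicle, the high-fat diet lowered 7 of the 44 members and raised none, 15.9% lower against 5.21% of all genes tested and 0% higher against 5.19% (10.4% either way). HFD_vehicle livers lay wholly above CD_vehicle livers for 2 members and wholly below for 5, against 7.25% and 7.21% of all genes. With libraries scaled by their totals alone, which moves the median of all genes in this comparison to 0.19, against -0.03 with TMM, the split was 6 higher, namely Acaa1b, Pex11a, Acox2, Hsd17b4, Ehhadh and Eci2, and 4 lower. The 7 were Hacl1, Agxt, Pipox, Pxmp2, Pex16, Pecr and Pxmp4. Hacl1 averaged 18.7 ± 4.30 CPM in HFD_vehicle and 46.1 ± 10.6 CPM in CD_vehicle livers (log2 -1.30 ± 0.18, adjusted p = 0.000271), without overlap. Agxt averaged 91.4 ± 7.16 CPM in HFD_vehicle and 217.6 ± 66.3 CPM in CD_vehicle livers (log2 -1.25 ± 0.18, adjusted p = 0.000257), also without overlap. Pipox averaged 216 ± 21.4 CPM in HFD_vehicle and 351 ± 70.6 CPM in CD_vehicle livers (log2 -0.70 ± 0.12, adjusted p = 0.00129). The mice of the 2 groups were again separate. Pex16 averaged 38.2 ± 2.70 CPM in HFD_vehicle and 55.3 ± 4.33 CPM in CD_vehicle livers (log2 -0.53 ± 0.09, adjusted p = 0.00104). These 4 calls held in each alternative fit planned for this comparison. Pxmp2 (-0.61 ± 0.16, adjusted p = 0.0172) lost its call without any 1 of HFD_vehicle 2, CD_vehicle 2 and 3 (adjusted p = 0.0598 to 0.0692) and with library totals or the 2 groups alone (adjusted p = 0.0642 to 0.0667). Pecr (-0.52 ± 0.15, adjusted p = 0.0323) lost its call without any 1 of HFD_vehicle 1, 2, 3 and 4, CD_vehicle 2 and 3 (adjusted p = 0.0592 to 0.112) and with library totals or the 2 groups alone (adjusted p = 0.0878 to 0.148). Pxmp4 (-0.32 ± 0.09, adjusted p = 0.0259) lost its call without any 1 of HFD_vehicle 2, 3 and 4, CD_vehicle 1 and 2 (adjusted p = 0.0505 to 0.0936) and with library totals, no filter or the 2 groups alone (adjusted p = 0.0674 to 0.512). Ehhadh (0.17), Acaa1b (0.32) and Pex11a (0.23), which PFOA raised on both diets, did not pass here, with adjusted p = 0.475, 0.145 and 0.303. Each of the 3 was called higher with library totals (0.40, adjusted p = 0.0325 for Ehhadh, 0.54, adjusted p = 0.00529 for Acaa1b and 0.44, adjusted p = 0.0329 for Pex11a). Abcd3 (-0.31, adjusted p = 0.0687) and Hao2 (-0.20), also raised by PFOA on both diets, had negative values here and were not called. Abcd3 was called lower with DESeq2 (-0.31, adjusted p = 0.0449), and Mpv17l with no filter (-0.63, adjusted p = 0.0198).

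The count of members lowered by the high-fat diet moved with single libraries of both groups. Without CD_vehicle 4, 13 members were called lower, among them Mpv17l (-0.76, adjusted p = 0.0333), Pex5 (-0.31, adjusted p = 0.0477), Pex26 (-0.48, adjusted p = 0.0294), Pex19 (-0.26, adjusted p = 0.029), Cat (-0.31, adjusted p = 0.032) and Hao1 (-0.43, adjusted p = 0.0299). Without CD_vehicle 1, Abcd3 (-0.41, adjusted p = 0.00801), Uox (-0.43, adjusted p = 0.0341) and Mpv17l (-0.76, adjusted p = 0.0417) were called lower and Crot higher (0.40, adjusted p = 0.0392). Pex14 was called lower without CD_vehicle 2 (-0.29, adjusted p = 0.0448). Without HFD_vehicle 2, 4 members were called lower. Leaving out both CD_vehicle 1 and CD_vehicle 4, an alternative chosen after the data were seen, gave 13 lower and 1 higher.

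Under PFOA, none of the 44 members differed between the diets by the adjusted test in edgeR, against 0.0600% of all genes tested (0.0467% higher and 0.0133% lower); 6 members had an unadjusted p under 0.05, and DESeq2 also called none. The median log2 difference was -0.03. HFD_PFOA livers lay wholly above CD_PFOA livers for 1 member and wholly below for 1, against 4.15% and 3.53% of all genes. The CPM of Ehhadh overlapped, with a log2 difference of 0.07 (95% interval -0.21 to 0.35) between HFD_PFOA and CD_PFOA livers. For Abcd3 it was 0.04 (95% interval -0.19 to 0.26) and for Pex11a 0.07 (95% interval -0.20 to 0.34). Hao2 had the widest gap, -0.74 (95% interval -1.72 to 0.24), with 9.49 to 19.2 CPM in HFD_PFOA and 21.7 to 32.2 CPM in CD_PFOA livers. Among the genes lower with the high-fat diet under vehicle, Hacl1 differed by -0.39 (adjusted p = 0.426), Agxt by -0.13 (adjusted p = 0.849) and Pipox by -0.28 (adjusted p = 0.411). The comparisons of the diets under vehicle and under PFOA share no mouse.

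**Figure D4:**
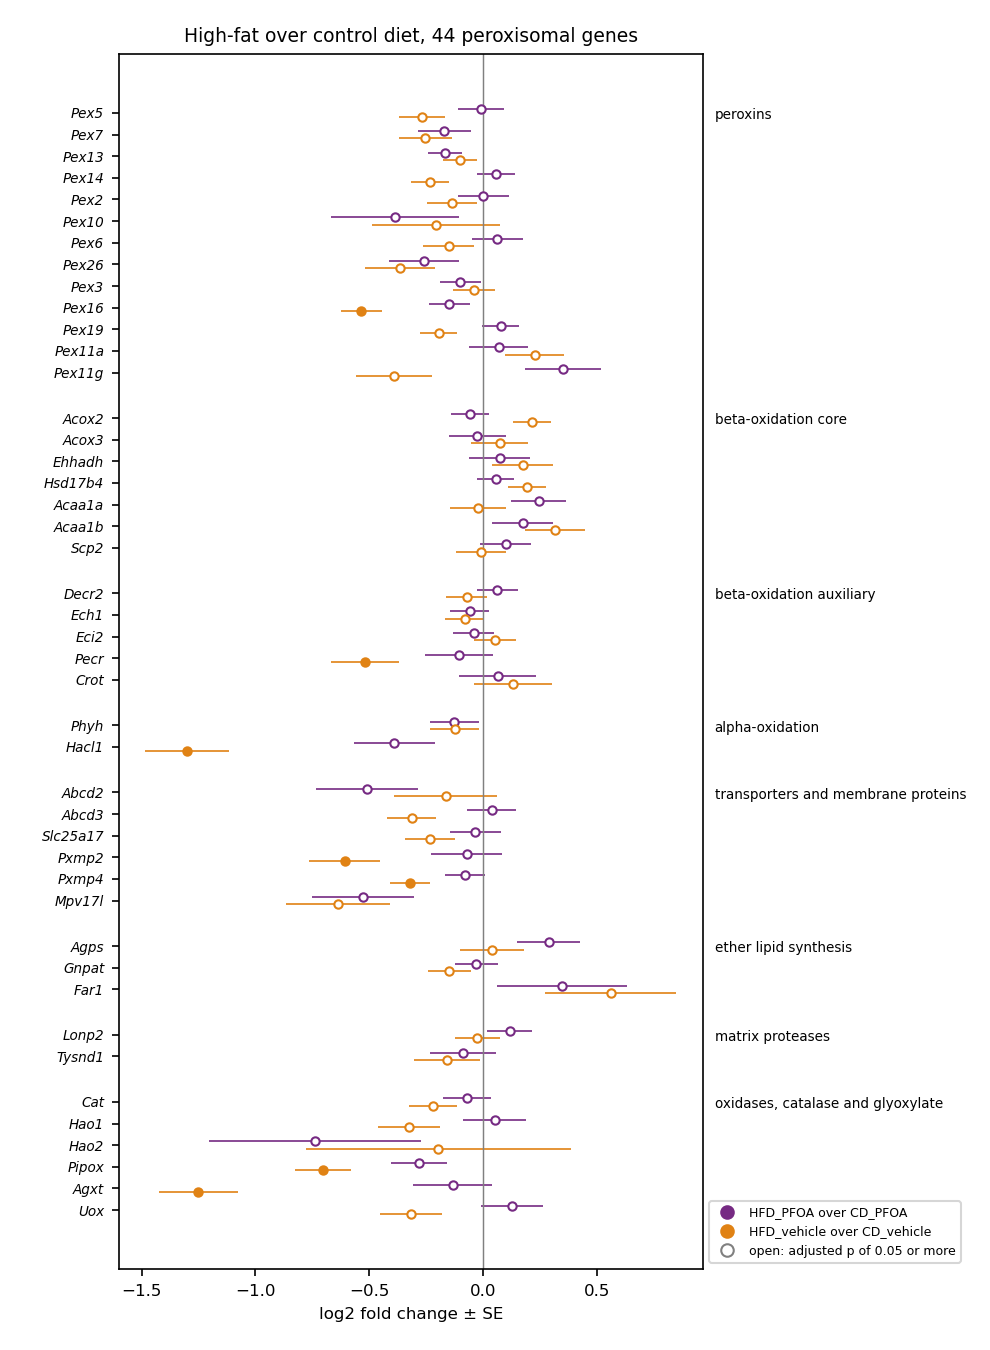
Log2 fold change ± SE (horizontal axis) of the high-fat over the control diet for 44 peroxisomal genes, grouped by class, among PFOA livers (purple, upper point) and vehicle livers (orange, lower point). Filled points have adjusted p under 0.05: none under PFOA and 7, all lower, under vehicle.

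Whether the effect of PFOA differed between the diets was tested as the interaction, PFOA on the high-fat diet minus PFOA on the control diet. No member passed in edgeR, against 0.207% of all genes (0.0667% positive and 0.140% negative); 11 members had an unadjusted p under 0.05, and DESeq2 and edgeR with no filter on low counts each called 2, Agxt and Hacl1. For Agxt the interaction was 1.12 ± 0.25 (adjusted p = 0.0639), and for Hacl1 0.91 ± 0.25 (adjusted p = 0.148). DESeq2 gave Agxt 1.11, adjusted p = 0.00243 and Hacl1 0.90, adjusted p = 0.0437. With no filter, edgeR gave Agxt 1.11, adjusted p = 7.04e-05 and Hacl1 0.90, adjusted p = 0.0046. Agxt also passed in edgeR without CD_vehicle 4 (1.32, adjusted p = 0.000107), as did Hacl1 (1.01, adjusted p = 0.0369), so 2 members passed without that library. The next largest values were those of Pex11g, 0.74 ± 0.24, Hao2, -0.54 ± 0.75, and Pxmp2, 0.54 ± 0.22, with adjusted p = 0.211, 0.863 and 0.349. Without HFD_vehicle 3 the Hao2 interaction had the opposite sign (0.46, adjusted p = 0.89). The calls for Pex16 and Lonp2 on the high-fat diet alone, and for Pex3, Abcd2, Pex11g, Pecr, Slc25a17, Pxmp2, Hao1 and Uox on the control diet alone, are not shown to differ between the diets: their interactions did not pass in edgeR with any scaling or filter, in DESeq2, or with any 1 library left out. Without both CD_vehicle 1 and CD_vehicle 4, an alternative chosen after the data were seen, the interactions of Pecr, Pxmp2 and Uox passed, with those of Hacl1, Abcd3, Pipox and Agxt.

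Other peroxisomal proteins outside the 46 genes were called higher with PFOA more often than lower. Of 36 such genes, 17 were called higher and 2 lower with PFOA on the high-fat diet, and 15 higher and 4 lower on the control diet. Of all genes tested, 8.60% were called higher and 7.91% lower on the high-fat diet, and 11.8% higher and 12.6% lower on the control diet. Hsdl2, a dehydrogenase-like protein, was 2.64-fold higher on the high-fat diet (log2 1.40 ± 0.08, adjusted p = 2.89e-10) and 2.68-fold higher on the control diet (log2 1.42 ± 0.08, adjusted p = 2.01e-10). Crat, carnitine acetyltransferase, rose by 1.95 ± 0.11, adjusted p = 2.89e-10 on the high-fat and 1.90 ± 0.11, adjusted p = 3.69e-10 on the control diet. The acyl-CoA thioesterases Acot4 and Acot3 rose by 2.64 ± 0.20 and 4.39 ± 0.34 on the high-fat diet. On the control diet they rose by 2.45 ± 0.20 and 3.64 ± 0.31, and all of these changes were called. Slc27a2, a very long chain acyl-CoA synthetase, rose by 1.13 ± 0.09, adjusted p = 3.15e-08 on the control diet. Nudt7, a hydrolase of peroxisomal coenzyme A, had 257, 171, 159 and 156 CPM in HFD_PFOA livers, against 130.2, 116, 94.9 and 74.8 CPM in HFD_vehicle livers (log2 0.84 ± 0.18, adjusted p = 0.00282). CD_PFOA livers held 162, 191, 193 and 173 CPM, against 318, 293, 318 and 194 CPM in CD_vehicle livers (log2 -0.65 ± 0.18, adjusted p = 0.0128). It was the 1 gene of this list that passed the interaction (1.48 ± 0.26, adjusted p = 0.0192). The high-fat diet under vehicle lowered 3 of the 36, Nudt7 (-1.43 ± 0.18, adjusted p = 0.000126), Acbd4 (-0.49 ± 0.09, adjusted p = 0.0013) and Acot3 (-1.36 ± 0.33, adjusted p = 0.0119), and Acot3 lost that call without HFD_vehicle 2 (-1.20, adjusted p = 0.0501) and with the 2 groups alone (-1.33, adjusted p = 0.0823). Of all genes tested, 5.21% were called lower in that comparison. Idh1, the NADP-dependent isocitrate dehydrogenase of cytosol and peroxisome, differed by -0.35 ± 0.11, adjusted p = 0.0504 there, called with DESeq2 (-0.34, adjusted p = 0.0302) and without CD_vehicle 1 (-0.44, adjusted p = 0.00591), CD_vehicle 4 (-0.38, adjusted p = 0.0325) or HFD_PFOA 1 (-0.35, adjusted p = 0.0383).

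Of 12 PPAR receptors and coregulators, 2 were called higher and 4 lower with PFOA on the high-fat diet, and 2 higher and 3 lower on the control diet, beside the shares of all genes just given. Ppard, the PPARdelta receptor, had 11.9, 14.4, 13.8 and 12.1 CPM in HFD_PFOA livers, against 22.1, 22.8, 13.8 and 18.3 CPM in HFD_vehicle livers (log2 -0.56 ± 0.15, adjusted p = 0.0114). CD_PFOA livers held 9.10, 11.5, 11.3 and 10.7 CPM, against 31.0, 36.4, 26.5 and 27.9 CPM in CD_vehicle livers (log2 -1.51 ± 0.15, adjusted p = 3.49e-07). Ppard was lower with PFOA on both diets, and lower with the high-fat diet under vehicle (-0.66 ± 0.15, adjusted p = 0.00676). The high-fat call was lost without HFD_vehicle 2 (-0.48, adjusted p = 0.0515) and the diet call with library totals (-0.43, adjusted p = 0.0603). The interaction for Ppard was 0.95 ± 0.21 (adjusted p = 0.0639), which passed with no filter or DESeq2 (adjusted p = 0.00695 to 0.00713) and without CD_vehicle 4 (0.99, adjusted p = 0.0198). Ppara, the receptor of peroxisome proliferators, had 141, 118, 123 and 138 CPM in HFD_PFOA livers, against 100.4, 132, 114 and 99.8 CPM in HFD_vehicle livers (log2 0.22 ± 0.10, adjusted p = 0.133). In CD_PFOA livers it had 122, 124, 124 and 111 CPM, against 69.1, 65.6, 62.0 and 68.2 CPM in CD_vehicle livers (log2 0.86 ± 0.10, adjusted p = 1.81e-06). All CD_vehicle livers lay below the other 3 groups, and the high-fat diet under vehicle raised it (0.75 ± 0.10, adjusted p = 0.000125); the interaction was -0.64 ± 0.14 (adjusted p = 0.0558). That interaction for Ppara passed with library totals, no filter or DESeq2 (adjusted p = 0.00204 to 0.0266), and in edgeR without CD_vehicle 1 (-0.66, adjusted p = 0.0257) or CD_vehicle 4 (-0.65, adjusted p = 0.0197), and its effect on the high-fat diet passed without HFD_vehicle 2 (0.31, adjusted p = 0.0329). Its partner Rxra did not pass, with -0.14 ± 0.13, adjusted p = 0.563 on the high-fat and 0.02 ± 0.13, adjusted p = 0.952 on the control diet, though without CD_vehicle 1 the control-diet value was 0.24, adjusted p = 0.0376. The coactivator Ppargc1b rose (1.30 ± 0.28, adjusted p = 0.00237 on the high-fat and 1.61 ± 0.28, adjusted p = 0.000271 on the control diet). Lpin1, a phosphatase that also acts as a coactivator, fell (-3.10 ± 0.34, adjusted p = 1.67e-06 on the high-fat and -2.31 ± 0.33, adjusted p = 2.62e-05 on the control diet). The corepressor Ncor1 was called higher on the high-fat diet (0.41 ± 0.08, adjusted p = 0.0012) and differed by 0.19 ± 0.08, adjusted p = 0.096 on the control diet, where it was called with library totals or DESeq2 (adjusted p = 0.0213 to 0.037). Pparg, the PPARgamma receptor, was called higher with the high-fat diet under vehicle (0.63 ± 0.15, adjusted p = 0.0124) and lower with PFOA on the high-fat diet (-0.46 ± 0.15, adjusted p = 0.0446), the second call being lost without any 1 of HFD_PFOA 1, 2, 3 and 4, HFD_vehicle 1, 2 and 3, CD_PFOA 1 and 4 (adjusted p = 0.0513 to 0.141). On the control diet Pparg differed by 0.37 ± 0.15, adjusted p = 0.0878 and passed without CD_PFOA 2 (0.46, adjusted p = 0.0495), CD_vehicle 1 (0.46, adjusted p = 0.0474) or CD_vehicle 4 (0.46, adjusted p = 0.0414). Its interaction was -0.83 ± 0.22 (adjusted p = 0.116), which passed with no filter or DESeq2 (adjusted p = 0.0173 to 0.0253) and without CD_vehicle 4 (-0.92, adjusted p = 0.0317). The coactivator Ncoa1 differed by 0.22 ± 0.11, adjusted p = 0.214 with the diet under vehicle and was called with library totals (0.45, adjusted p = 0.0126). Ppargc1a, a coactivator named after its values were seen, was the remaining gene of the list called lower on both diets (-0.76 ± 0.22, adjusted p = 0.0201 on the high-fat and -1.14 ± 0.22, adjusted p = 0.000717 on the control diet).

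Beyond the peroxisome, 1 of 7 tested glyoxylate and urate neighbours rose and 3 fell with PFOA on each diet, against 8.60% higher and 7.91% lower of all genes on the high-fat diet and 11.8% and 12.6% on the control diet. Grhpr, which reduces glyoxylate, rose by 0.86 ± 0.13, adjusted p = 6.98e-05 on the high-fat diet and by 0.72 ± 0.13, adjusted p = 0.000323 on the control diet. Urad, which acts on a product of urate oxidation, fell by 1.75 on the log2 scale on the high-fat diet (adjusted p = 0.00072) and by 3.62 on the control diet (adjusted p = 1.32e-07). The effects on Urad differed by 1.87 ± 0.46 (adjusted p = 0.0967), which passed with no filter or DESeq2 (adjusted p = 0.00515 to 0.00809). It averaged 1.25 ± 0.673 CPM in HFD_PFOA, 4.20 ± 1.34 CPM in HFD_vehicle, 1.23 ± 0.379 CPM in CD_PFOA and 15.1 ± 1.79 CPM in CD_vehicle livers, and was called lower with the high-fat diet under vehicle (-1.86 ± 0.30, adjusted p = 0.000769). Ldha, a lactate dehydrogenase that can also reduce glyoxylate, fell on both diets (-0.72 ± 0.18, adjusted p = 0.00663 on the high-fat and -0.96 ± 0.18, adjusted p = 0.000426 on the control diet). Xdh, the xanthine dehydrogenase that makes urate, was called lower on the high-fat diet (-0.44 ± 0.09, adjusted p = 0.00161); on the control diet it differed by -0.24 ± 0.09, adjusted p = 0.0567 and passed with DESeq2 (-0.23, adjusted p = 0.0496) and without CD_PFOA 4 (-0.29, adjusted p = 0.0425) or HFD_PFOA 1 (-0.24, adjusted p = 0.0476). Hoga1, the mitochondrial aldolase that releases glyoxylate, was called lower on the control diet (-0.34 ± 0.12, adjusted p = 0.0499), a call lost without any 1 of HFD_PFOA 2 and 4, HFD_vehicle 1, 2, 3 and 4, CD_PFOA 1, 2, 3 and 4, CD_vehicle 2 and 3 (adjusted p = 0.0538 to 0.153) and with DESeq2's size factors, library totals or the 2 groups alone (adjusted p = 0.063 to 0.106). With the high-fat diet under vehicle, Urah, which acts after urate oxidase, was called lower (-0.47 ± 0.09, adjusted p = 0.00293) and lost that call with library totals (-0.25, adjusted p = 0.0512). Hoga1 (-0.32 ± 0.12, adjusted p = 0.104) and Agxt2, a mitochondrial aminotransferase (0.21 ± 0.10, adjusted p = 0.178), did not pass there, although Hoga1 did without CD_vehicle 4 (-0.41, adjusted p = 0.0246) and Agxt2 with library totals (0.43, adjusted p = 0.0023). Of 7 tested genes for later ether lipid steps, Pla2g6, a phospholipase, was the 1 called higher with PFOA on each diet, against 8.60% and 11.8% of all genes (1.11 ± 0.10, adjusted p = 1.01e-07 on the high-fat and 1.48 ± 0.10, adjusted p = 1.83e-09 on the control diet). Tmem86b, which cleaves lysoplasmalogen, was called lower on the control diet (-0.74 ± 0.11, adjusted p = 6.9e-05) and differed by -0.28 ± 0.12, adjusted p = 0.106 on the high-fat diet, with an interaction of 0.46 ± 0.16 (adjusted p = 0.259); the high-fat difference passed with the 2 groups alone (-0.29, adjusted p = 0.044). With the high-fat diet under vehicle, Tmem86b was called lower (-0.80 ± 0.11, adjusted p = 0.000307) and Pla2g6 higher (0.60 ± 0.10, adjusted p = 0.000836). Chpt1, a cholinephosphotransferase, was also called higher there (0.43 ± 0.12, adjusted p = 0.028), a call lost without any 1 of HFD_vehicle 1, 2, 3 and 4, CD_vehicle 2 and 4 (adjusted p = 0.0527 to 0.0664). Chpt1 differed by -0.31 ± 0.12, adjusted p = 0.0877 with PFOA on the high-fat diet, which passed with library totals or the 2 groups alone (adjusted p = 0.0203 to 0.0308) and without HFD_PFOA 1 (-0.41, adjusted p = 0.0269). Agmo, which cleaves the ether bond, differed by 0.29 ± 0.10, adjusted p = 0.0591 on the high-fat and 0.28 ± 0.10, adjusted p = 0.056 on the control diet. It passed on the high-fat diet with DESeq2 or the 2 groups alone (adjusted p = 0.0109 to 0.043) and without CD_vehicle 1 (0.29, adjusted p = 0.0238) or CD_vehicle 3 (0.29, adjusted p = 0.0279). Agmo passed on the control diet with library totals or DESeq2 (adjusted p = 0.00525 to 0.036) and without CD_vehicle 3 (0.39, adjusted p = 0.00631). Selenoi, an ethanolaminephosphotransferase, differed by -0.29 ± 0.11, adjusted p = 0.065 on the control diet and passed without CD_PFOA 1 (-0.35, adjusted p = 0.0405) or CD_vehicle 4 (-0.40, adjusted p = 0.00593). Cept1, a choline and ethanolamine phosphotransferase, differed by -0.17 ± 0.10, adjusted p = 0.347 with the diet under vehicle.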

How the data were processed

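RNA from 16 flash-frozen mouse livers, 4 in each of 4 groups, was extracted with Qiagen RNeasy and sequenced as non-stranded libraries, per the labels' protocols. The authors deposited raw counts per gene, 1 column per mouse. The submitters' processing notes name bcl2fastq 2.20.0.422, Trimmomatic 0.33, STAR 2.5.2b, featureCounts in Subread 1.6.0 and the build GRCm38 (mm10), and no annotation release. Without strand, reads of overlapping genes on opposite strands cannot be told apart. From the counts, 1 model over the 16 libraries with a mean per group was fitted in edgeR 4.0.16 (R 4.3.3, limma 3.58.1), with TMM scaling, the filterByExpr filter, the quasi-likelihood test on 12 residual degrees of freedom and Benjamini-Hochberg adjustment over 14998 genes. Each SE was taken from the fold change and its F statistic (size over root F), and intervals are 95%. The series design calls each mouse a biological replicate. Every 2 libraries of a group differed by more than counting error, with chi-square statistics over genes of 8.55 to 152 times their degrees of freedom. The scripts were tested on simulated data.

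The 46 genes, the other gene lists and the tests were chosen with earlier results of these data known. Genes outside the 46 were named if among the 4 smallest p-values of their list in a PFOA comparison or in the diet comparison under vehicle, with Ppara and Rxra added; 1 gene that the rule names is not reported here. The symbol Hacl1 names 2 rows, and the one with counts was used. Alternatives were other scalings, no filter, DESeq2 1.42.0, a fit over the compared groups alone and each library left out. Protein sequences were not used here.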

Additional observations from a re-analysis of the deposited data

Results flagged for a closer look

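Within groups of 4 mice, 1 mouse stood apart from the other 3 in 16 of the 180 groups of member values and in 9 of the 120 groups of the other genes named, where chance gives about 1 in 20. A mouse was counted when its gap to the nearest of the other mice, divided by the range of the group, was over Dixon's 95% critical value. Among HFD_PFOA livers these were Acaa1b at 1959 CPM in HFD_PFOA 1 (other mice 1459 to 1521 CPM), Eci2 at 349.5 CPM in HFD_PFOA 1 (other mice 285 to 292 CPM), Crot at 1556 CPM in HFD_PFOA 3 (other mice 1739.8 to 1773 CPM), Phyh at 1492 CPM in HFD_PFOA 1 (other mice 1131 to 1179 CPM), Tysnd1 at 31.5 CPM in HFD_PFOA 4 (other mice 38.6 to 39.1 CPM) and Agxt at 111 CPM in HFD_PFOA 1 (other mice 96.9 to 99.2 CPM). Among HFD_vehicle livers they were Pex13 at 83.9 CPM in HFD_vehicle 3 (other mice 76.2 to 77.0 CPM), Hsd17b4 at 615 CPM in HFD_vehicle 1 (other mice 548 to 558 CPM), Pxmp2 at 29.4 CPM in HFD_vehicle 2 (other mice 40.3 to 40.5 CPM) and Uox at 1776 CPM in HFD_vehicle 4 (other mice 1564 to 1587 CPM). Among CD_PFOA livers they were Acaa1b at 1516 CPM in CD_PFOA 1 (other mice 1386 to 1396 CPM) and Tysnd1 at 43.2 CPM in CD_PFOA 1 (other mice 37.5 to 38.5 CPM). Among CD_vehicle livers they were Acox3 at 23.5 CPM in CD_vehicle 2 (other mice 28.8 to 29.4 CPM), Eci2 at 127 CPM in CD_vehicle 1 (other mice 103 to 107 CPM), Far1 at 6.32 CPM in CD_vehicle 4 (other mice 3.38 to 3.80 CPM) and Tysnd1 at 67.3 CPM in CD_vehicle 1 (other mice 36.9 to 41.3 CPM). HFD_PFOA 1 was the high mouse for Acaa1b, Eci2, Phyh and Agxt. Tysnd1 had a mouse apart in 3 groups.

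Of the other genes, Nudt7 at 257 CPM in HFD_PFOA 1 (other mice 156 to 171 CPM), Urad at 2.25 CPM in HFD_PFOA 1 (other mice 0.778 to 0.982 CPM), Urad at 2.18 CPM in HFD_vehicle 4 (other mice 4.79 to 4.95 CPM) and Ppara at 111 CPM in CD_PFOA 4 (other mice 122 to 124 CPM) stood apart. In CD_vehicle livers, Acot4 at 30.8 CPM in CD_vehicle 1 (other mice 61.8 to 63.9 CPM), Rxra at 556 CPM in CD_vehicle 1 (other mice 324 to 352 CPM), Ncor1 at 129 CPM in CD_vehicle 4 (other mice 151 to 153 CPM), Grhpr at 211 CPM in CD_vehicle 1 (other mice 131 to 135.2 CPM) and Ldha at 987 CPM in CD_vehicle 1 (other mice 459.7 to 519.9 CPM) did so.

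The effect of PFOA on Nudt7 differed between the diets, with an interaction of 1.48 ± 0.26 on the log2 scale (adjusted p = 0.0192, edgeR). The log2 fold change was 0.84 ± 0.18 on the high-fat and -0.65 ± 0.18 on the control diet.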

How the results depend on the processing

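Each library came from a separate mouse and the labels name no pairs, so no paired analysis was run. The labels carry no replicate numbers, and the number after a group name is the order of the samples within that group. Of the members called, 21 of 23 for PFOA on the high-fat diet (18 higher and 3 lower), 22 of 29 for PFOA on the control diet (15 higher and 7 lower) and 4 of 7 for the high-fat diet under vehicle kept their call under every other scaling, filter, tool and set of libraries named in the methods. No called value changed sign, and 141 of 4796 single values changed sign while uncalled in both fits. With each library left out in turn, the high-fat diet under vehicle called 5.72% to 14.8% of genes (10.4% with all libraries) and 4 to 13 members (7). The high-fat diet under PFOA called 0.0065% to 0.364% of genes (0.06% with all libraries), and the interaction called 0.0844% to 2.29% of genes (0.207% with all libraries) and 0 to 2 members (0). The high end came without CD_vehicle 4 in each. With no filter on low counts, 27956 genes were tested in place of 14998, and the shares called were 8.55% for PFOA on the high-fat diet, 12.2% for PFOA on the control diet, 6.27% for the diet under vehicle, 0.805% for the diet under PFOA and 1.04% for the interaction, with 2 members in the last. With DESeq2, the diet under PFOA called 1.19% of genes and the interaction 1.49% and 2 members. A fit over the compared groups alone called 6.46% of genes and 4 members for the diet under vehicle and 0.924% of genes for the diet under PFOA. Without both CD_vehicle 1 and CD_vehicle 4, chosen after seeing the data, the diet under vehicle called 14 members, the diet under PFOA 1.3% of genes, and the interaction 4.08% of genes and 7 members. Scaled by library totals, the summed level of the members in HFD_vehicle livers was 14819 CPM, against 13858 CPM with TMM, and the median of all genes in the interaction moved to -0.10, against 0.02. The cause of these changes was not tested beyond the number of genes tested. Eci3 had too few counts for a test.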
